A study of Homo sapiens with 6 samples.

Results

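The expression of 10 genes that encode the Aurora kinases, the Polo-like kinases and the chromosomal passenger complex was examined in PANC-1 cells after silencing of METTL16. The genes were taken from the 58735 genes of the deposited table by name and not by a cut-off on their values. Earlier results of these data were known when the choice was made. The 10 genes were AURKA with its activator TPX2, the passenger complex genes AURKB, INCENP, CDCA8 and BIRC5, and the Polo-like kinases PLK1, PLK2, PLK3 and PLK4. All 10 passed the filter on low counts and were among the 15089 genes tested. PANC-1 is an established human cell line from a pancreatic ductal adenocarcinoma. RNA-seq was performed on 6 samples, 3 transfected with control siRNA (si-NC) and 3 with siRNA against METTL16 (si-METTL16), an RNA m6A methyltransferase. The methods describe biological triplicates and call the sequenced cells stably transfected with these siRNAs, and the labels also speak of transfection with siRNA. Both groups carried an siRNA and no untransfected sample was analysed here, although a further label calls the control samples WT. The 3 METTL16 siRNA sequences listed in the study are not assigned to samples, and the time from transfection to harvest was not found in the methods or labels, so an effect shared by one siRNA sequence cannot be told apart from an effect of METTL16 loss.

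Aurora and Polo-like kinases drive the passage of cells through mitosis. Aurora A, bound and activated by TPX2 on spindle microtubules, acts at centrosomes and the spindle. Aurora B works inside the chromosomal passenger complex, in which INCENP is the scaffold and activator, and borealin (CDCA8) and survivin (BIRC5) bring the complex to centromeres and later to the central spindle. PLK1 acts from mitotic entry to cytokinesis and is itself switched on by Aurora A, and PLK4 starts the duplication of centrioles. PLK2 and PLK3 belong to the same family but are best known as genes that are rapidly induced by growth factors and by cellular stress. Transcripts of the mitotic members are low in resting cells and rise towards mitosis in dividing cells.

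In bulk RNA, a change in the share of cells in a phase of the cell cycle and a change of RNA per cell cannot be told apart. Total counts lay between 15725298 and 18054436 per sample, and the 10 genes together held between 8308 and 22497 of them. Levels are given as CPM, the count of a gene relative to the library's total after scaling by the trimmed mean of M values (TMM). METTL16 itself had 91.5, 96.7 and 101 CPM in si-NC replicates 1, 2 and 3 and 34.8, 33.9 and 34.9 CPM in the si-METTL16 replicates, which is 35.9% of the control level. All 7 ductal epithelial markers examined had at least 10 counts in every sample, with KRT8 the most abundant. Of the 7, 4 were called lower after silencing, against 17.5% of all genes tested. These were KRT19, CDH1, KRT7 and SOX9, with log2 fold changes of -1.40, -1.09, -0.84 and -0.25 (adjusted p between 0.00111 and 0.0117, edgeR). KRT8, KRT18 and EPCAM were not called, with log2 fold changes of -0.23, 0.2 and 0.44. Of 15 markers of fibroblasts, leukocytes, acinar, islet and endothelial cells, 13 were too low to be tested, with at most 14 counts in a sample (CDH5), and CPA1, GCG and CD3E had 0. The acinar, islet and endothelial lists summed to at most 0.177, 0.295 and 0.911 CPM in a sample. Of the 3 fibroblast and 3 leukocyte markers, 1 each had 10 counts in every sample. These were COL1A1, which with the fibroblast list as a whole went from between 323 and 373 CPM to between 800 and 838 CPM (adjusted p = 9.39e-05, edgeR), and CD68, whose list went from between 5.67 and 5.82 CPM to between 7.78 and 9.43 CPM (adjusted p of CD68 = 0.00928, edgeR). Their part in the results was not tested.

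The sequences around the transcription starts of the genes are shown first. RefSeq promoter windows (GRCh38.p14) of 300 bases, 250 before and 50 after the start, were at hand for 7 of the 10 genes and not for AURKA, TPX2 and BIRC5. The element searched first was the cell cycle genes homology region (CHR), with the letters TTTGAA on either strand, a motif known from promoters of genes expressed late in the cell cycle. It was present in windows of INCENP, CDCA8, PLK1 and PLK4, and not in those of AURKB, PLK2 or PLK3, against 15.2% of all 35116 windows. This share and those below count single windows, whereas AURKB had 2 windows and PLK4 had 3. The first base of the motif lay 10, 23 and 29 bases before the start in INCENP, CDCA8 and PLK1 on the strand of the gene. In PLK4 it lay 39 bases after the start on the opposite strand, in window 1 of the 3 windows. In the lines of PLK1, CDCA8, INCENP and PLK4, capitals mark this motif. PLK2 is shown for contrast, and its capitals mark the letters TATAA, which begin 28 bases before its start and were found in 20.4% of all windows but in no window of another member.

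PLK1, chr16:23678639-23678938, plus strand: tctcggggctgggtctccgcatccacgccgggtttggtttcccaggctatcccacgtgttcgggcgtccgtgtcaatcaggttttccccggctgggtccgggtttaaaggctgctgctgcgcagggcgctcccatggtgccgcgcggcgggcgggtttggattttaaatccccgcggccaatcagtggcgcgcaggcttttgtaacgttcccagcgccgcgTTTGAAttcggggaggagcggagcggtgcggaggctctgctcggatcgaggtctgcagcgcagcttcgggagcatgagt
CDCA8, chr1:37692266-37692565, plus strand: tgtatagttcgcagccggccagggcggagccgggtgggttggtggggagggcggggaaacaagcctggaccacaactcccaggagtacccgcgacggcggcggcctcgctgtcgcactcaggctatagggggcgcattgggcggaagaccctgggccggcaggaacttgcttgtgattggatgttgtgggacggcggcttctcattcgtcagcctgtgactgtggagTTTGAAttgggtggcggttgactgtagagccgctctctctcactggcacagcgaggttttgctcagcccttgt
INCENP, chr11:62123761-62124060, plus strand: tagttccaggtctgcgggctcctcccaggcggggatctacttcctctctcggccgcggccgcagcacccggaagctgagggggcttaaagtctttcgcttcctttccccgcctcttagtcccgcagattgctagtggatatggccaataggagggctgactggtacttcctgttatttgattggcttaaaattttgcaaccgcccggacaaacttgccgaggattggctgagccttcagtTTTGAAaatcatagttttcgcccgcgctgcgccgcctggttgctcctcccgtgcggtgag
PLK4, chr4:127880643-127880942, plus strand: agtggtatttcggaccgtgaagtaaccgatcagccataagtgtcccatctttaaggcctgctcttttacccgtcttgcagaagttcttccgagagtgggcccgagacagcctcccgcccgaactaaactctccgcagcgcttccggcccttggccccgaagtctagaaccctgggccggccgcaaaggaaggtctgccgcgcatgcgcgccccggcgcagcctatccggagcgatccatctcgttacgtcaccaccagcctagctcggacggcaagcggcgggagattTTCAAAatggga
PLK2, chr5:58460037-58460336, minus strand: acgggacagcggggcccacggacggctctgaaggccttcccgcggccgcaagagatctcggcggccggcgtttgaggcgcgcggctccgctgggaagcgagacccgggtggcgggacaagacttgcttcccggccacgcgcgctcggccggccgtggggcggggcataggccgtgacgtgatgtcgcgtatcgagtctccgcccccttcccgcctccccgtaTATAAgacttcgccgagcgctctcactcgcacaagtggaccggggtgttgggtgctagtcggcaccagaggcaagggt

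A second form of the CHR, TTTAAA, occurred 148 and 88 bases before the start of PLK1 and in no window of the other members, against 12.2% of all windows. The CCAAT box, searched as CCAAT on either strand, was found in INCENP at 107, 71 and 28 bases before the start, in CDCA8 at 115, 75 and 18 bases, in PLK1 at 73 bases, in both windows of AURKB and in window 3 of PLK4, against 34.6% of all windows. In CDCA8 the nearest CCAAT box begins at the last base of the CHR. The CRE letters TGACGT were found in PLK2, 77 bases before the start, and in window 1 of PLK4, against 7.98% of all windows. E2F sites, searched as short words of letters, were found in no window of the members, against 3.31% of all windows. These matches describe letters within short windows and not the binding of a factor. Whether they bear on the changes of the genes was not tested.

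In si-METTL16 cells 9 of the 10 genes were called higher, all 8 with a mitotic role and the stress-induced PLK2, and PLK3 had a lower level that did not pass the threshold. The threshold was an adjusted p under 0.05 in the edgeR quasi-likelihood test, adjusted by Benjamini-Hochberg over the 15089 genes. Among all genes tested, 18.4% were called higher, 17.5% lower and 35.9% in either direction. The median log2 fold change of the 10 genes was 1.03, against 0.00 for all genes tested. CDCA8 rose most, 3.14-fold, followed by PLK4 and AURKB, while PLK1 had the smallest rise at 1.52-fold. For all 10 genes the 3 si-NC values lay apart from the 3 si-METTL16 values, which was also so for 50.9% of all genes tested. A permutation test of a single gene with 3 samples against 3 cannot give an exact p below 0.1.

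**Figure D1:**
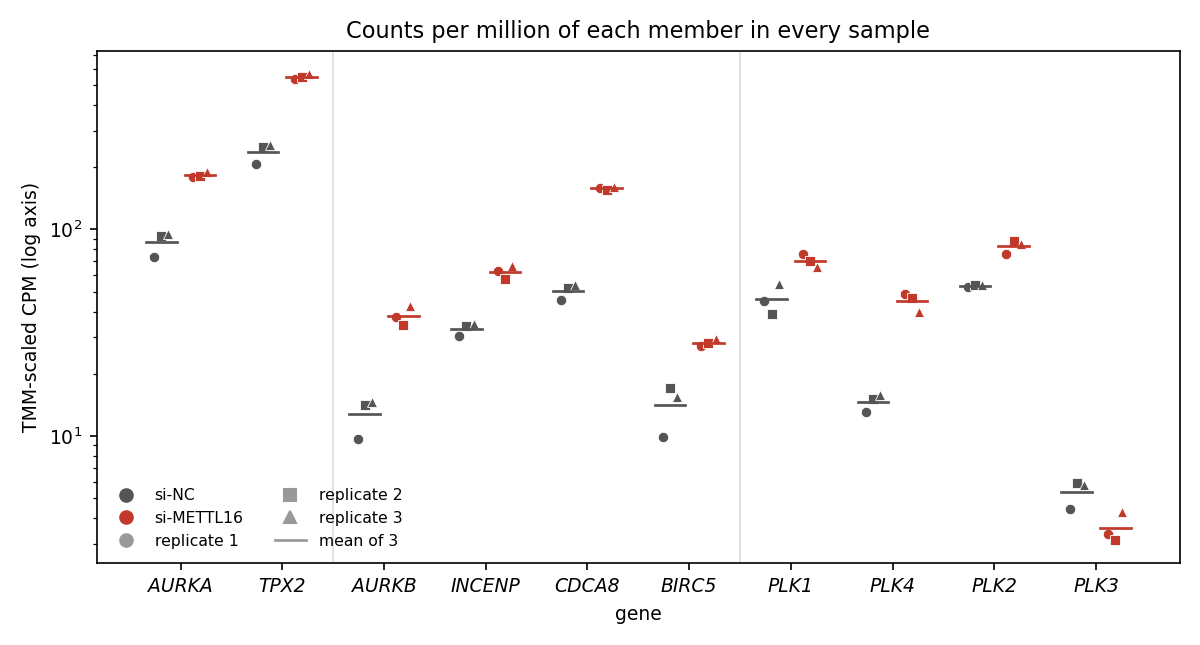
TMM-scaled CPM on a log axis for each of the 10 genes, with points for the 3 replicates of si-NC (grey) and si-METTL16 (red) and a bar for the mean of 3. The groups do not overlap for any gene, 9 genes are higher in si-METTL16 cells, and PLK3, between 3.14 and 5.89 CPM, is lower.

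AURKA, the kinase of centrosomes and spindle poles (chromosome 20 from 56369389 to 56392337, minus strand), had 73.7, 93.0 and 95.5 CPM in si-NC replicates 1, 2 and 3 and 179, 181 and 191 CPM in the si-METTL16 replicates. The lowest silenced sample was higher than every control sample, and the spread was wider among controls than among silenced samples. On the log2 scale AURKA rose by 1.07, with a standard error of 0.10 (adjusted p = 0.000425, edgeR). The processed copies AURKAP1 and AURKAP2, which could share reads with AURKA, held 98 and 0 counts over the 6 samples, against 13694 for AURKA.

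TPX2, which binds Aurora A and nucleates microtubules (chromosome 20 from 31739271 to 31801805, plus strand), was the most abundant of the 10 genes. It had 208, 251 and 256 CPM in si-NC replicates 1, 2 and 3 and 535, 549 and 567 CPM in the si-METTL16 replicates. The silenced samples had a coefficient of variation of 2.85%, against 11.2% among the controls. TPX2 rose by 1.21 on the log2 scale, with a standard error of 0.09 (adjusted p = 0.000163, edgeR). Within a sample, and per kilobase of transcript, the TPX2 level was between 1.57 and 1.65 times that of AURKA in si-NC cells and between 1.73 and 1.78 times in si-METTL16 cells. The ranges do not overlap, although they lie close together.

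The 4 genes of the chromosomal passenger complex were all called higher, with estimated rises that differed in size. INCENP, the scaffold (chromosome 11 from 62123973 to 62153163, plus strand), had 30.5, 34.0 and 34.7 CPM in the controls and 63.2, 57.3 and 66.6 CPM after silencing, in the order of replicates 1, 2 and 3. INCENP rose by 0.92 on the log2 scale, with a standard error of 0.09 (adjusted p = 0.000494, edgeR). AURKB, the catalytic subunit (chromosome 17 from 8204733 to 8210600, minus strand), had 9.65, 14.1 and 14.6 CPM in the controls and 37.7, 34.6 and 42.4 CPM after silencing. Si-NC replicate 1 was well below the other control samples for AURKB, yet the lowest silenced sample still exceeded the highest control by more than the range of either group. AURKB rose by 1.58 on the log2 scale, with a standard error of 0.17 (adjusted p = 0.000637, edgeR), and by 1.41 without si-NC replicate 1.

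CDCA8 encodes borealin, which links survivin to INCENP and helps to dock the complex on centromeric chromatin (chromosome 1 from 37692418 to 37709719, plus strand). It had 45.3, 51.9 and 53.7 CPM in si-NC replicates 1, 2 and 3 and 159, 156 and 160 CPM in the si-METTL16 replicates. The silenced samples differed among themselves by a coefficient of variation of 1.25%, and each was above every control. CDCA8 had the largest log2 fold change of the 10 genes, 1.65 (standard error 0.08, adjusted p = 8.34e-05, edgeR), and ranked 17 of 15089 by p. BIRC5 encodes survivin, which reads a phosphorylated histone mark at centromeres and is also classed among the inhibitors of apoptosis (chromosome 17 from 78214186 to 78225636, plus strand). It had 9.88, 17.1 and 15.4 CPM in the controls and 27.1, 28.1 and 29.5 CPM after silencing. BIRC5 was the most variable of the 10 genes among controls (coefficient of variation 26.8%, against 4.32% after silencing). BIRC5 rose by 1.00 on the log2 scale, with a standard error of 0.19 (adjusted p = 0.00698, edgeR), and by 0.79 without si-NC replicate 1.

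To compare levels between genes, CPM was divided by the length of the MANE Select transcript of GENCODE v44. On this per-kilobase scale CDCA8 was the most abundant passenger gene in both groups, at 21.2 ± 1.88 CPM per kilobase in the controls and 66.7 ± 0.834 after silencing, and BIRC5 the least abundant, at 5.49 ± 1.47 and 11 ± 0.474 (mean ± SD, n = 3 each). The AURKB level was between 1.05 and 1.39 times that of INCENP in the controls and between 1.98 and 2.11 times after silencing. For CDCA8 against INCENP the within-sample ratio was between 2.58 and 2.69 in the controls and between 4.16 and 4.73 after silencing. Neither ratio overlapped between the groups, and the estimated rise of INCENP was smaller than those of AURKB and CDCA8. The levels of single genes also separated the groups for 50.9% of all genes tested. The CDCA8 to AURKB ratio overlapped, at 1.93 to 2.46 and 1.97 to 2.36, as did that of BIRC5 to INCENP, at 0.518 to 0.806 and 0.686 to 0.784. These ratios are descriptions of transcripts, and the differences in response between subunits were not tested.

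**Figure D2:**
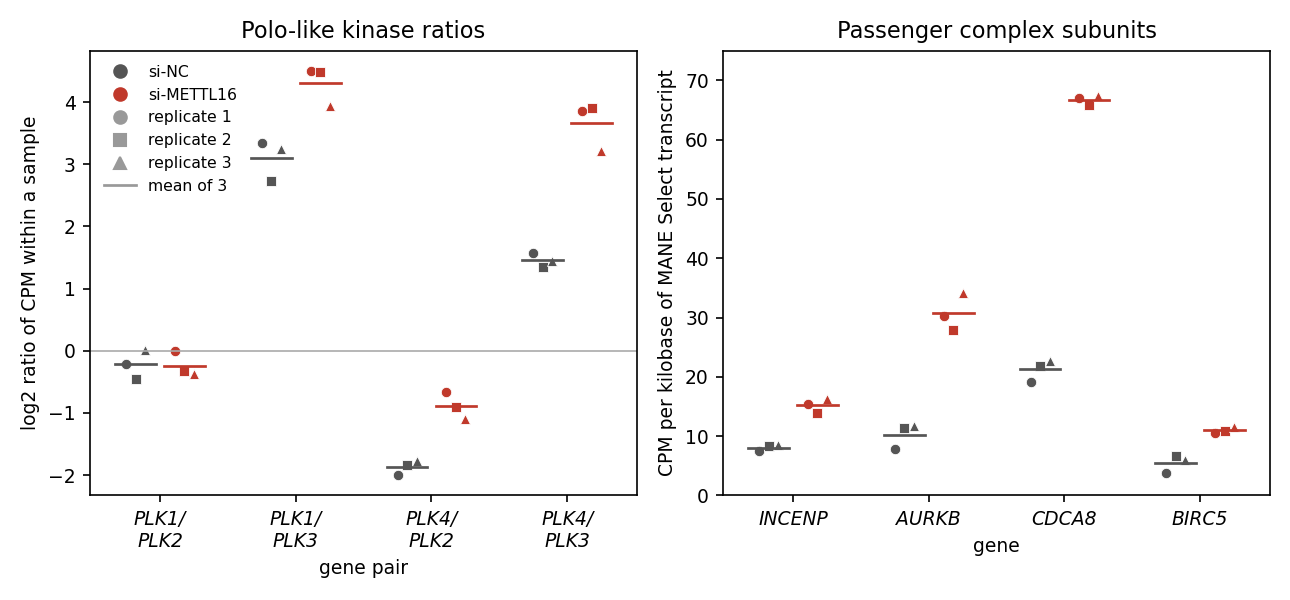
Left, log2 ratio of CPM within each sample for the 4 pairs of a mitotic and a stress-induced Polo-like kinase. Right, CPM per kilobase of MANE Select transcript for the passenger complex genes. Points are the 3 replicates of si-NC (grey) and si-METTL16 (red) and bars their means. The PLK1/PLK2 ratio overlaps between groups, the other ratios are higher after silencing, and CDCA8 rises from 21.2 to 66.7 CPM per kilobase.

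Among the Polo-like kinases, PLK1, the main mitotic kinase (chromosome 16 from 23677656 to 23690367, plus strand), had 45.0, 39.0 and 54.5 CPM in si-NC replicates 1, 2 and 3 and 75.7, 70.0 and 65.6 CPM in the si-METTL16 replicates. The highest control, replicate 3, was below the lowest silenced sample, also a replicate 3, by less than the range of the controls. The rise of PLK1 was 0.61 on the log2 scale, with a standard error of 0.13 (adjusted p = 0.01, edgeR), and it was 0.49 without si-NC replicate 2 and 0.74 without si-NC replicate 3. Si-NC replicate 1 was the lowest control for 7 of the 8 mitotic members, and the exception was PLK1, which was lowest in si-NC replicate 2. On the opposite strand PLK1 overlaps ERN2 by 58 bases and a lncRNA by 641 bases, and both of these genes had 0 counts in all samples.

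PLK4, the kinase of centriole duplication (chromosome 4 from 127880861 to 127899195, plus strand), had 13.1, 15 and 15.7 CPM in the controls and 48.4, 46.7 and 39.8 CPM after silencing. All silenced samples were far above the controls, by more than the range of either group. Its log2 fold change was 1.62, with a standard error of 0.11 (adjusted p = 0.000162, edgeR), close to that of CDCA8 and AURKB. Per kilobase, PLK4 was between 0.162 and 0.217 times the PLK1 level in the controls and between 0.341 and 0.376 times after silencing.

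PLK2, a kinase induced by serum and stress (chromosome 5 from 58453982 to 58460260, minus strand), had 52.5, 53.8 and 53.8 CPM in the controls and 76.4, 88.0 and 85.2 CPM after silencing. The controls were nearly equal, with a coefficient of variation of 1.35%, the smallest of the 10 genes, and all silenced samples were higher. The rise of PLK2 was 0.64 on the log2 scale, with a standard error of 0.08 (adjusted p = 0.000884, edgeR), a size close to that of PLK1. PLK3, the other stress-induced kinase (chromosome 1 from 44800225 to 44805990, plus strand), was the least abundant of the 10 genes, with 75, 100 and 101 counts in the controls and 55, 49 and 77 counts after silencing. These counts correspond to 4.44, 5.89 and 5.76 CPM and to 3.35, 3.14 and 4.28 CPM, so the highest silenced sample lay just under the lowest control. PLK3 had a log2 difference of -0.57, with a standard error of 0.20 (adjusted p = 0.0609, edgeR), and leaving out si-NC replicate 1 or si-METTL16 replicate 3 gave -0.70 and -0.72, with adjusted p of 0.0487 and 0.0498 from edgeR. DYNLT4, which overlaps PLK3 by 98 bases on the opposite strand, had 4 counts over the 6 samples. The paralogs PLK5 and AURKC, not among the 10 genes, had at most 1 and 18 counts in a sample.

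**Figure D3:**
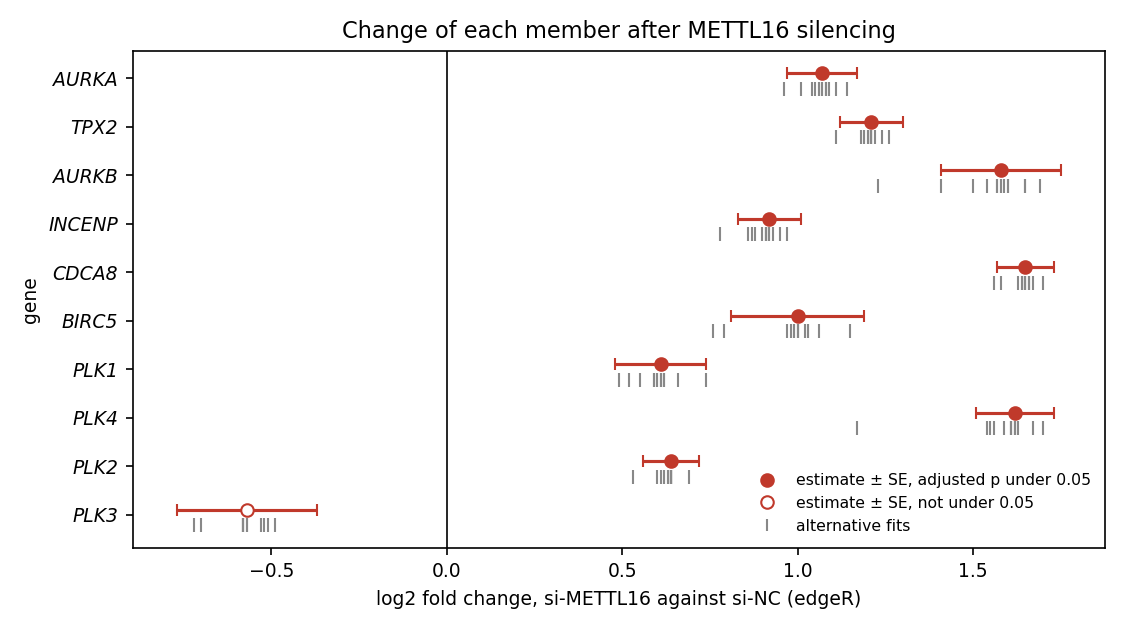
Log2 fold change of each gene in si-METTL16 against si-NC cells (edgeR), with its standard error, filled where the adjusted p was under 0.05, and grey ticks for the alternative fits. Values run from -0.57 for PLK3 to 1.65 for CDCA8, and no alternative crosses 0.

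The mitotic and stress-induced kinases were then set against each other within each sample, which removes the scaling between libraries. In log2 units PLK1 against PLK2 stood at -0.22 ± 0.24 in the controls and -0.24 ± 0.20 after silencing (mean ± SD, n = 3 each), a difference of -0.02 (two-sided exact permutation test, p = 0.9). A difference in response between PLK1 and PLK2 was not detectable with 3 samples a group, and leaving out 1 sample moved it between -0.14 and 0.10. The log2 ratio of PLK4 to PLK2 moved from -1.87 ± 0.11 (SD, n = 3) to -0.89 ± 0.22 (SD, n = 3), a difference of 0.98 that was seen in 3 of 3 silenced samples. Against PLK3, the ratio of PLK1 rose by 1.20 and that of PLK4 by 2.20 on the log2 scale. Each of these 3 ratios separated the groups completely and had an exact permutation p of 0.1, the smallest possible, and an adjusted p of 0.133 over the 4 ratios, so none could pass the threshold. As a description outside the 4 ratios, the PLK2 level was between 7.67 and 9.94 times that of PLK3 per kilobase in the controls. It was between 16.7 and 23.5 times after silencing. This ratio was not tested, and PLK3 was not called and had only 49 to 101 counts a sample.

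By level per kilobase, the order in si-NC cells was TPX2 (68.6), AURKA (43.0), PLK1 (21.4), CDCA8 (21.2), PLK2 (19.2), AURKB (10.3), INCENP (8.03), BIRC5 (5.49), PLK4 (3.81) and PLK3 (2.29 CPM per kilobase). The neighbours PLK1 and CDCA8, CDCA8 and PLK2, AURKB and INCENP, and BIRC5 and PLK4 overlapped between replicates. In si-METTL16 cells the order was TPX2 (159), AURKA (90.4), CDCA8 (66.7), PLK1 (32.6), AURKB (30.8), PLK2 (29.9), INCENP (15.2), PLK4 (11.7), BIRC5 (11) and PLK3 (1.54 CPM per kilobase). CDCA8 stood clear of PLK1 there, whereas PLK1, AURKB and PLK2 overlapped, as did PLK4 and BIRC5. The order depends on the length used. The deposited FPKM divides the counts of PLK1 by 8534 bases and those of AURKB by 5941, which is 3.95 and 4.78 times their MANE Select transcripts, but those of TPX2 by 3605 bases, 1.04 times. On the FPKM scale AURKB therefore ranked 8 in si-NC cells in place of 6, and INCENP ranked 4 in si-METTL16 cells in place of 7. Fold changes of a gene are not touched by its length.

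The partners of these kinases were examined in 6 lists of genes written from general knowledge, with earlier results of these data known. Of 16 regulators of Aurora A and spindle partners, 15 were called higher and none lower (median log2 fold change 0.91), against 18.4% of all genes called higher. KIF11, the motor that pushes spindle poles apart, had the largest rise, from 109 ± 13.2 to 278 ± 19.9 CPM (SD, n = 3; log2 fold change 1.35, adjusted p = 0.000185, edgeR), and NUMA1, a spindle pole protein, the smallest called (log2 fold change 0.27, adjusted p = 0.0488, edgeR). Among 16 partners of Aurora B and the passenger complex, 14 were called higher and none lower (median 1.09). KIF2C, a microtubule-depolymerizing kinesin regulated by Aurora B, rose from 64.8 ± 3.09 to 218 ± 2.91 CPM (SD, n = 3; log2 fold change 1.75, adjusted p = 6.95e-05, edgeR), more than any of the 10 genes, and RACGAP1, a subunit of the central spindle complex, had the smallest called rise (log2 fold change 0.37, adjusted p = 0.00479, edgeR). HASPIN and BUB1, the kinases whose histone marks recruit the passenger complex, were named after their values were seen and had log2 fold changes of 1.37 and 1.63 (adjusted p = 0.000243 and 0.000114, edgeR).

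Of 15 regulators and substrates of PLK1, 12 were called higher and none lower (median log2 fold change 0.95), so that most of them had a larger change than PLK1 itself. CEP55, a protein of the midbody, rose by 1.42 and NEDD1, which anchors gamma-tubulin, by 0.73 on the log2 scale (adjusted p = 0.000498 and 0.000697, edgeR). BORA, the cofactor through which Aurora A activates PLK1, belongs to the Aurora A list, was also chosen after its values were seen, and rose from 9.73 ± 1.73 to 21.1 ± 4.82 CPM (SD, n = 3; log2 fold change 1.12, adjusted p = 0.00508, edgeR). Of the 14 partners of PLK4 in centriole duplication, 7 were called higher (50% against 18.4% of all genes), 2 lower (14.3% against 17.5%) and 5 were not called (median 0.46). STIL, the direct partner and substrate of PLK4, rose by 1.42 on the log2 scale (adjusted p = 0.000397, edgeR), whereas CEP120 fell by 0.61 (adjusted p = 0.00203, edgeR).

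**Figure D4:**
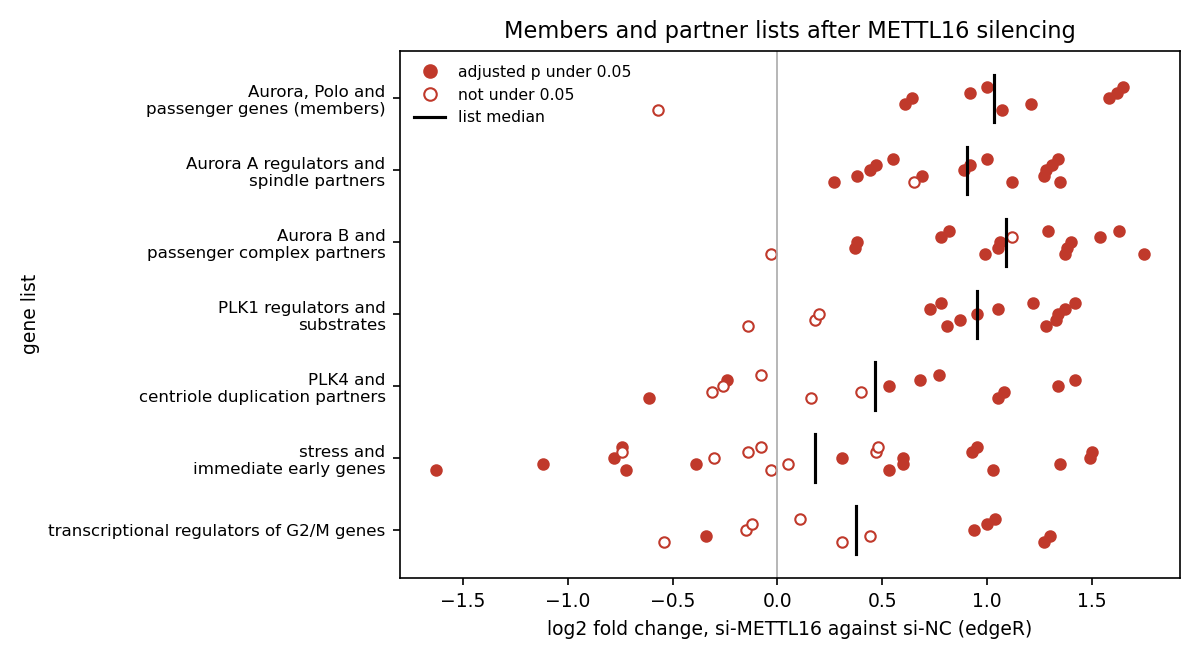
Log2 fold change of every gene of the 10 members and of the 6 partner lists (edgeR), filled where the adjusted p was under 0.05, with the median of each list as a bar. The Aurora and PLK1 lists lie almost entirely above 0, with medians of 0.91, 1.09 and 0.95, and the stress list spreads from -1.63 to 1.5.

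The 24 stress and immediate early genes, the company in which PLK2 and PLK3 are usually found, had a median log2 fold change of 0.18. Of them, 10 were called higher (41.7% against 18.4% of all genes), 6 lower (25% against 17.5%) and 8 were not called. FOSL1, a subunit of AP-1, had the highest called value at 1.5 (adjusted p = 0.000481, edgeR) and CDKN1A, the p21 inhibitor of cyclin-dependent kinases, the lowest at -1.63 (adjusted p = 8.34e-05, edgeR). Without si-NC replicate 1, 6 of the 10 were still called higher, and GADD45A, GADD45B, KLF6 and MDM2 were lost with adjusted p between 0.05 and 0.0699 (edgeR). Of 12 transcriptional regulators of G2/M genes, 5 were called higher (41.7%) and 1 lower (8.33%), with a median of 0.37. FOXM1, an activator of many mitotic genes, rose from 28.5 ± 3.28 to 70.4 ± 8.18 CPM (SD, n = 3; log2 fold change 1.30, adjusted p = 0.000398, edgeR). E2F4, part of the complex that represses them in resting cells, was the only one called lower and fell by 0.34 (adjusted p = 0.0193, edgeR). The others called higher were MYBL2, LIN9, LIN54 and RBL1, with log2 fold changes of 1.04, 1.27, 0.94 and 1.0 (adjusted p between 0.000274 and 0.00099, edgeR).

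The pattern of the Polo-like kinases over the 6 samples was also matched with that of other genes, by Pearson's r of log2 CPM among 9849 genes with a mean of at least 10 CPM. The 3 closest were ENTPD1-AS1, SCD5 and PPP4R3A for PLK1 (r between 0.990 and 0.994), TTC4, FAM83D and FDX1 for PLK2 (r = 0.999) and ARRB1, DIXDC1 and LDB1 for PLK3 (r between 0.989 and 0.995). With so few samples and a difference between groups in common, 724, 1697 and 359 genes had r above 0.9 with PLK1, PLK2 and PLK3. These values describe likeness over 6 libraries and carry no test.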

How the data were processed

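RNA-seq of 3 si-NC and 3 si-METTL16 samples was analysed. The authors deposited raw counts per gene and FPKM values. The submitters' processing notes name HISAT2 2.0.4, StringTie 1.3.0 and GRCh38; the counting program, annotation release and use of strand are not given in the sources used here. Over 10031 genes with at least 1000 counts, the length behind FPKM lay within 5% of the summed distinct exons of GENCODE v44 for 56.4%, and of the merged exons for 9.24%, so genes with many isoforms are divided by long lengths. Coordinates are those of the deposited table on GRCh38; strand, overlaps and transcript lengths are from GENCODE v44.

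Counts were scaled by TMM, filtered with filterByExpr (minimum count 10, minimum total 15) and tested by quasi-likelihood in edgeR 4.0.16 under R 4.3.3 (glmQLFit, glmQLFTest). Standard errors are the log2 fold change over the root of F. The study's methods name limma, which was run as an alternative (limma 3.58.1, on voom values and on log2(FPKM + 1) and log2(FPKM + 0.1) where mean FPKM reached 1), as was DESeq2 1.42.0. Further alternatives were the replicate block, each sample left out, other filters, size factors and a threshold of 0.01. Exact permutation tests used scipy 1.17.1. The fit was tested on simulated data. Replicate libraries were not duplicates (chi-square per degree of freedom at least 14.7).

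The rule for named genes took METTL16, the 10 members, the highest and lowest called gene of each of the 6 lists and the 3 genes most like PLK1, PLK2 and PLK3. Outside it, marker genes, paralogs, copies and overlapping genes, stress genes that lost their call and the other called G2/M regulators are named. HASPIN, BUB1 and BORA are named as well and were chosen after their values were seen. Members and lists were chosen with earlier results of these data known. Depth was 15725298 to 18054436 counts a sample, and PLK3 had the lowest counts of the members.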

Additional observations from a re-analysis of the deposited data

How the results depend on the processing

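The 9 rises held their direction and their call under all 15 alternatives, except that PLK1 was not called at an adjusted p under 0.01; 8 of the 10 genes passed that threshold, and 3035 of all genes in place of 5418. PLK3 was lower under all 13 alternatives that gave it a value, with log2 fold changes from -0.72 to -0.49 and adjusted p from 0.0487 to 0.158; it has none in limma on FPKM because its mean FPKM is below 1. Without 1 sample at a time, between 4159 and 4526 genes were called, and between 9 and 10 of the 10 genes. The count of stress genes called higher, 10, was between 6 and 10 without 1 sample and 6 at an adjusted p under 0.01. The change in the PLK1/PLK2 ratio, -0.02, lay between -0.14 and 0.10 without 1 sample, so it has no stable direction. Limma on log2(FPKM + 1), a scale that shrinks the change of low genes, gave 1.17 for PLK4 and 1.23 for AURKB in place of 1.62 and 1.58. The replicate numbers are shared by both groups. Samples with one number deviated from the group means with a correlation of 0.0253 to 0.0371 across genes, and other pairs with one of -0.0388 to 0.00827, so each sample correlated best with its own number, weakly. With the replicate block 5013 genes were called, 4731 of them also without it, and 9 of the 10 genes. Leaving out a sample leaves 2 in its group. PLK3 had the lowest counts of the members, 49 to 101 a sample, and 3 samples a group limit every gene.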
